A study of Mus musculus with 10 samples.

Results

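CC chemokine ligands were followed in tumour-associated macrophages by their transcripts. The 10 ligands are Ccl2, Ccl3, Ccl4, Ccl5, Ccl6, Ccl7, Ccl8, Ccl9, Ccl12 and Ccl24, taken by gene symbol from tables of 46957 loci. Each of the 10 was found once, at a locus that lists no other symbol, and each passed the filter on low counts. The macrophages came from BALB/cJ mice whose mammary fat pad had been given cells of 4T1, a mouse mammary carcinoma line, and both groups carried the tumour. The vehicle group received PBS and the other group received JHU083, a prodrug of the glutamine antagonist 6-diazo-5-oxo-L-norleucine, at 1 mg/kg on days 7 to 13. Tumours were taken on day 14 and macrophages were sorted as live CD45+CD11b+F4/80+ cells negative for CD8, Ly6C and Ly6G. There were 5 samples per group, numbered 1 to 5. The labels do not say that each sample was a separate mouse, give no age or sex, and describe a single tumour line, so p-values measure the spread between these samples.

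CC chemokines are small secreted proteins that draw leukocytes along gradients by binding CCR receptors on the target cell. Macrophages are a main source of them in tumours, where CCR2 ligands recruit monocytes, CCR1 ligands recruit monocytes, macrophages and T cells, and CCR3 ligands recruit eosinophils. In the mouse most of these genes sit in clusters on chromosome 11, where neighbours arose by duplication.

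The ligands occupy 3 places in the GENCODE M21 annotation of GRCm38, and all are protein coding. Ccl2 (chr11:82035571-82037453), Ccl7 (chr11:82045712-82047525), Ccl12 (chr11:82101845-82103400) and Ccl8 (chr11:82115185-82116799) form the monocyte chemoattractant cluster, all on the plus strand. Ccl5 (chr11:83525778-83530518), Ccl9 (chr11:83572919-83578636), Ccl6 (chr11:83587882-83593087) and Ccl3 (chr11:83647844-83649355) lie on the minus strand of the macrophage inflammatory protein cluster. Ccl4 (chr11:83662584-83664683) belongs to the same cluster on the plus strand. Ccl24 lies apart, at chr5:135569937-135573049 on the minus strand. The library kit does not mark strand, so fragments of an overlapping gene on the other strand cannot be told apart. E230016K23Rik overlaps Ccl6 and had 4 to 18 fragments per sample, against 9566 to 23065 for Ccl6, and Gm17268 overlaps Ccl2 and had 0 in every sample.

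Promoter windows, 250 bases before to 50 after the start, were found in RefSeq (GRCm38.p6) for 5 of the 10 ligands: Ccl3, Ccl6, Ccl8, Ccl9 and Ccl12. The sequences below are the 150 bases before the start of 2 neighbour pairs, written 5′ to 3′ on the gene's own strand. They are shown because Ccl9 and Ccl6 were the ligands with the clearest treatment difference, while Ccl12 and Ccl8 are neighbours with unlike values. Capitals mark an aligned stretch of each pair. For Ccl9 and Ccl6 it is the best alignment of the whole windows, and for Ccl12 and Ccl8 the best when only bases before the start were aligned.
Ccl9 (chr11:83578637-83578786, minus strand): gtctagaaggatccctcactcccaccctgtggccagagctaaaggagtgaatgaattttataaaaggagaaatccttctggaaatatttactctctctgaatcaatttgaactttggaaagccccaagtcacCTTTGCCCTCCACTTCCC
Ccl6 (chr11:83593088-83593237, minus strand): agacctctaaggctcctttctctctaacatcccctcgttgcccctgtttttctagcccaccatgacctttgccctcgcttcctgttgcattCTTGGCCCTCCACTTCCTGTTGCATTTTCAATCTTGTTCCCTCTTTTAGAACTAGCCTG
Ccl12 (chr11:82101695-82101844, plus strand): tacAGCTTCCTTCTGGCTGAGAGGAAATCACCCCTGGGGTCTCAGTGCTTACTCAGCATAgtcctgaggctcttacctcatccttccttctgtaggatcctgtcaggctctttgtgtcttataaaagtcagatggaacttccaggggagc
Ccl8 (chr11:82115035-82115184, plus strand): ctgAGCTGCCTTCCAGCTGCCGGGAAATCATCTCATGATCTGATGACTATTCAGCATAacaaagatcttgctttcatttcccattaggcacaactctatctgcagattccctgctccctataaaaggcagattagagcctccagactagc

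For Ccl9 and Ccl6 the aligned stretch ran from base -18 to 49 of Ccl9 and from base -59 to 15 of Ccl6, counted from the start, with 59 of 74 columns identical (79.7%, 7 columns with gaps). Only its bases before the start are in capitals. For Ccl12 and Ccl8 the stretch in capitals lies at -147 to -91 of Ccl12 and -147 to -93 of Ccl8, with 41 of 58 columns identical (70.7%). Over their whole windows a different stretch scored higher, from -31 to 4 of Ccl12 and -32 to 4 of Ccl8, with 28 of 36 columns identical (77.8%). The percentage alone does not set this pair apart. Whole windows of Ccl12 and Ccl3 reached 81.0% over 21 columns, and those of Ccl8 and Ccl3 85.7% over 14 columns. Their alignment scores were 21 and 18, against 30 for Ccl12 with Ccl8 and 71 for Ccl9 with Ccl6. The whole windows were searched on both strands for motifs of factors that induce chemokines. The AP-1 motif TGANTCA was found in 1 of the 5 windows, as TGAATCA at -53 to -47 of Ccl9, and in 7.81% of all 32851 promoter windows. None of the 5 windows held the kappaB motif, GGGA and CC with 4 free bases between them (20.7% of all windows), the STAT motif TTCNNNGAA (8.3%), the STAT6 motif, TTC and GAA with 4 free bases between them (6.95%), or the interferon response core, GAAA and GAAA with 2 free bases between them (3.44%). The TATA motif TATAAAA, which does not overlap these, was found in 3 of the 5 windows and in 5.48% of all windows. It stood at -31 to -25 of Ccl12, at -32 to -26 of Ccl8 and at -92 to -86 of Ccl9, and on the other strand of Ccl9 at -95 to -89 and -225 to -219. These are matches of letters and carry no measure of binding.

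Libraries held 11147870 to 15740701 fragments, with 11147870 to 14575932 in vehicle and 13638381 to 15740701 in JHU083. Of 12501 loci tested, 36.7% differed between the groups (edgeR adjusted p under 0.05), 18.4% being higher and 18.3% lower in JHU083. In 5 libraries, vehicle 2, 4 and 5 and JHU083 1 and 3, the loci Rn18s-rs5 and Gm42418 are listed at 0, and in the other 5 they are present. JHU083 replicate 3 had the lowest sample quality weight (0.29) of the limma-voom fit. Values of the called ligands, and of those whose call changed in an alternative, are therefore also given within the libraries that share this status. For the 10 ligands, values without JHU083 replicate 3 are given where that changes a call.

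Among the 10 ligands, Ccl9, Ccl6 and Ccl5 rose in JHU083 and none fell by the edgeR test. That is 3 of 10 higher, where 18.4% of all tested loci were higher, and the median log2 fold change of the 10 was 0.12, against 0.01 over all tested loci. At an unadjusted p under 0.05, 1 ligand, Ccl4, was lower, where 23.1% of all loci were. DESeq2 called 0 ligands lower (19.9% of all loci). With sample quality weights, with scaling to library size only and without JHU083 replicate 3, 2 ligands were called lower, Ccl4 and Ccl12, where 23.3%, 25.1% and 23.1% of all loci were. All 5 JHU083 values lay above all 5 vehicle values for Ccl6 and Ccl9 (2 of 10), where 11.2% of all tested loci did so. For no ligand did all 5 lie below, where 11.1% of loci did so. In sorted cells in bulk, a change in the share of cells that make a ligand and a change in transcript per cell cannot be told apart.

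**Figure D1:**
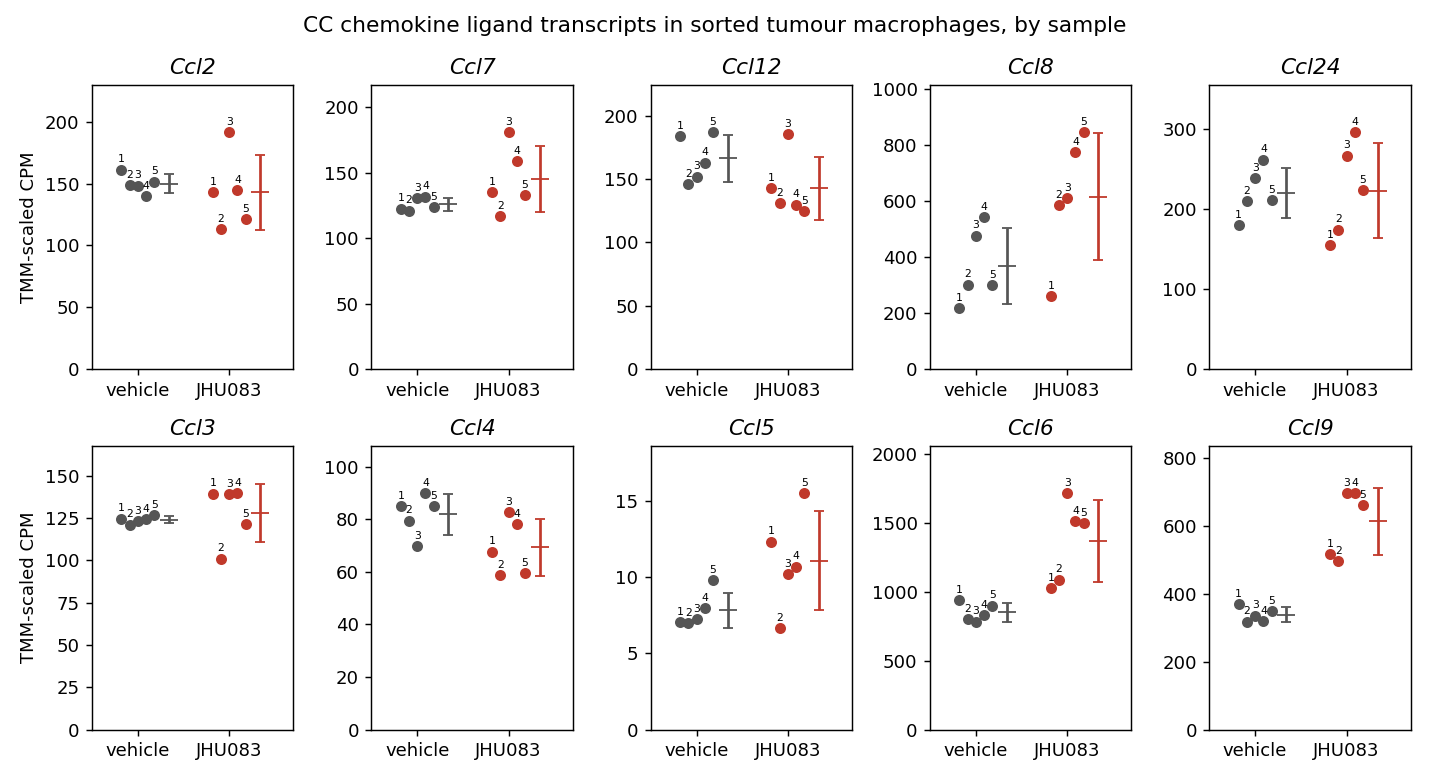
Transcript level of each CC ligand in CPM scaled by TMM (y axes start at 0 and differ between panels), with 1 point per sample numbered by replicate, and the mean with its SD beside the points. The vehicle and JHU083 points of Ccl6 and Ccl9 do not overlap, while those of the other 8 ligands do.

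In the macrophage inflammatory protein cluster, the neighbours Ccl9 and Ccl6, both ligands of CCR1, were the only ligands of the 10 with no overlap between the groups. Levels are given as CPM, fragments of a gene relative to the library total scaled by TMM. Ccl9 was at 371, 318, 336, 321 and 350 CPM in vehicle 1 to 5 and at 517, 497, 698, 696 and 662 CPM in JHU083 1 to 5. The lowest treated value was above the highest vehicle value, and JHU083 1 and 2 lay below the other three treated samples. The means were 339 ± 21.7 and 614 ± 99.0 CPM (SD, n = 5), 1.81 times higher in JHU083. The log2 fold change was 0.86 ± 0.10 (SE, 95% interval 0.64 to 1.08, edgeR adjusted p = 3.25e-05), and the exact two-sided permutation p was 0.0079, the smallest that 5 against 5 can give. Within the libraries with Rn18s-rs5 at 0 the log2 fold change of Ccl9 was 0.88, and within the others 0.80 (edgeR adjusted p = 0.00795 and 0.00472). Of the 50-base words in Ccl9 transcripts, 2.0% also occur in transcripts of other genes, while the other 9 ligands share none.

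Ccl6 was the most abundant ligand by fragments. Its values were 940, 801, 785, 831 and 901 CPM in vehicle 1 to 5 and 1026, 1091, 1720, 1517 and 1503 CPM in JHU083 1 to 5. Here too JHU083 1 and 2 were the lowest treated samples, close above vehicle 1. The means were 851.5 ± 66.3 and 1371 ± 299 CPM (SD, n = 5), 1.61 times higher in JHU083, with a log2 fold change of 0.69 ± 0.13 (SE, 95% interval 0.40 to 0.97, edgeR adjusted p = 0.00131, exact permutation p = 0.0079). Within the libraries with Rn18s-rs5 at 0 the log2 fold change was 0.71 and the call was lost (edgeR adjusted p = 0.0527), and within the others it was 0.66 (adjusted p = 0.0165).

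Ccl5, which attracts T cells and monocytes through CCR1 and CCR3, was the lowest of the 10. It was at 7.06, 7.01, 7.24, 7.99 and 9.78 CPM in vehicle and at 12.3, 6.65, 10.2, 10.7 and 15.5 CPM in JHU083, with 92 to 237 fragments per sample. JHU083 2 lay below every vehicle sample and the other four lay above all of them. The mean of Ccl5 rose from 7.82 ± 1.17 to 11.1 ± 3.23 CPM (SD, n = 5). On the log2 scale the difference was 0.51 ± 0.19 (SE, 95% interval 0.10 to 0.91, edgeR adjusted p = 0.0494, exact permutation p = 0.0714). This call lies at the threshold, and it was lost in 17 of 27 alternative fits, where the log2 fold change ran from 0.36 to 0.65. Leaving out vehicle 1, 2, 3 or 4, or JHU083 1, 4 or 5, was enough to lose it. Within the libraries with Rn18s-rs5 at 0 and within the others it was 0.45 and 0.61 (edgeR adjusted p = 0.211 and 0.164).

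Ccl3 and Ccl4, both made by activated macrophages, did not pass the test. Ccl3 was nearly level in vehicle, at 125, 121, 123, 125 and 127 CPM, and at 139.5, 101, 139, 139.8 and 121 CPM in JHU083. Treated samples lay on both sides of the vehicle values, 3 above all of them and 1 below. Ccl3 had a log2 fold change of 0.05 ± 0.09 (SE, 95% interval -0.14 to 0.24, edgeR adjusted p = 0.699). It was -0.04 when scaled to library size only and -0.05 within the libraries with Rn18s-rs5 present, and 0.17 within those at 0. Ccl4 was at 85.1, 79.5, 69.8, 89.9 and 84.9 CPM in vehicle and at 67.6, 58.7, 82.6, 78.0 and 59.5 CPM in JHU083. JHU083 1, 2 and 5 lay below all vehicle samples, and the log2 fold change was -0.24 ± 0.11 (SE, 95% interval -0.47 to -0.01, edgeR adjusted p = 0.0895). Without JHU083 replicate 3 Ccl4 was called lower, at -0.31 (edgeR adjusted p = 0.0185), and without vehicle replicate 3 at -0.29 (adjusted p = 0.046). The log2 fold change of Ccl4 within the libraries with Rn18s-rs5 at 0 was -0.17 and within the others -0.26 (edgeR adjusted p = 0.467 and 0.246).

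The monocyte chemoattractants Ccl2, Ccl7 and Ccl12 act on CCR2, the receptor that brings monocytes into tissue, and none of them passed the test. Ccl2 was at 161, 149, 148, 139.7 and 151.5 CPM in vehicle and at 143, 113, 191.5, 145 and 121.5 CPM in JHU083. The treated samples spread to both sides, with JHU083 3 above and JHU083 2 and 5 below every vehicle sample. For Ccl2 the log2 fold change was -0.07 ± 0.12 (SE, 95% interval -0.32 to 0.18, edgeR adjusted p = 0.667). Within the libraries with Rn18s-rs5 at 0, which include JHU083 3, it was 0.19 (adjusted p = 0.434), within the others -0.30 (adjusted p = 0.116), and without JHU083 3 it was -0.20.

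Ccl7, which also binds CCR1 and CCR3, was at 123, 121, 131, 132 and 124 CPM in vehicle and at 135, 117, 181, 159 and 133 CPM in JHU083. Of the treated values, 4 exceeded all vehicle values and JHU083 2 lay below them. Ccl7 had a log2 fold change of 0.20 ± 0.10 (SE, 95% interval -0.01 to 0.42, edgeR adjusted p = 0.129), and without JHU083 replicate 2 Ccl7 was called higher, at 0.27 (edgeR adjusted p = 0.0367). Its value within the libraries with Rn18s-rs5 at 0 was 0.34 and within the others 0.10 (adjusted p = 0.175 and 0.646).

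Ccl12 was at 184, 146, 152, 163 and 187 CPM in vehicle and at 143, 131, 185, 129.8 and 125 CPM in JHU083. All treated samples but JHU083 3 lay below the lowest vehicle sample. Ccl12 had a log2 fold change of -0.22 ± 0.11 (SE, 95% interval -0.46 to 0.02, edgeR adjusted p = 0.133). Without JHU083 replicate 3 Ccl12 was called lower, at -0.33 (edgeR adjusted p = 0.00545), within the libraries with Rn18s-rs5 present at -0.40 (adjusted p = 0.0354), and within the others it was -0.01 (adjusted p = 0.987). Ccl12 and Ccl4 were both also called lower with sample quality weights (-0.29 and -0.30, limma adjusted p = 0.0121 and 0.0197) and when scaled to library size only (-0.30 and -0.32, edgeR adjusted p = 0.0305 and 0.0212).

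Ccl8, which in mice acts on CCR8 of T cells, lies next to Ccl12 and had the largest coefficient of variation (SD over mean) of the 10 in both groups, 37.2% in vehicle and 36.9% in JHU083. It was at 216, 301, 476.5, 543.5 and 299 CPM in vehicle and at 260, 585, 612, 775 and 847 CPM in JHU083. JHU083 1 fell among the vehicle samples and the other four lay above all of them. The means were 367 ± 137 and 616 ± 227 CPM (SD, n = 5). The difference on the log2 scale, 0.75 ± 0.28 (SE, 95% interval 0.14 to 1.35), did not pass the threshold (edgeR adjusted p = 0.0521, exact permutation p = 0.0556). The call changed to higher in 6 of 27 alternatives, among them without JHU083 replicate 1, at 0.94 (edgeR adjusted p = 0.00694), without vehicle replicate 3, at 0.86 (0.0392), and without vehicle replicate 4, at 0.92 (0.0296). Within the libraries with Rn18s-rs5 present the log2 fold change of Ccl8 was 1.08 (adjusted p = 0.0173), and within those with it at 0 it was 0.20 (adjusted p = 0.778).

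Ccl24, a CCR3 ligand that attracts eosinophils and is a product of alternatively activated macrophages, was at 179, 209.7, 238, 261 and 210.3 CPM in vehicle. In JHU083 it was at 154, 174, 266, 295 and 223 CPM. The groups overlapped, with 2 treated samples below and 2 above all vehicle samples. The log2 fold change was 0.02 ± 0.16 (SE, 95% interval -0.32 to 0.36, edgeR adjusted p = 0.938), and its sign turned in 10 of 27 alternatives.

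**Figure D2:**
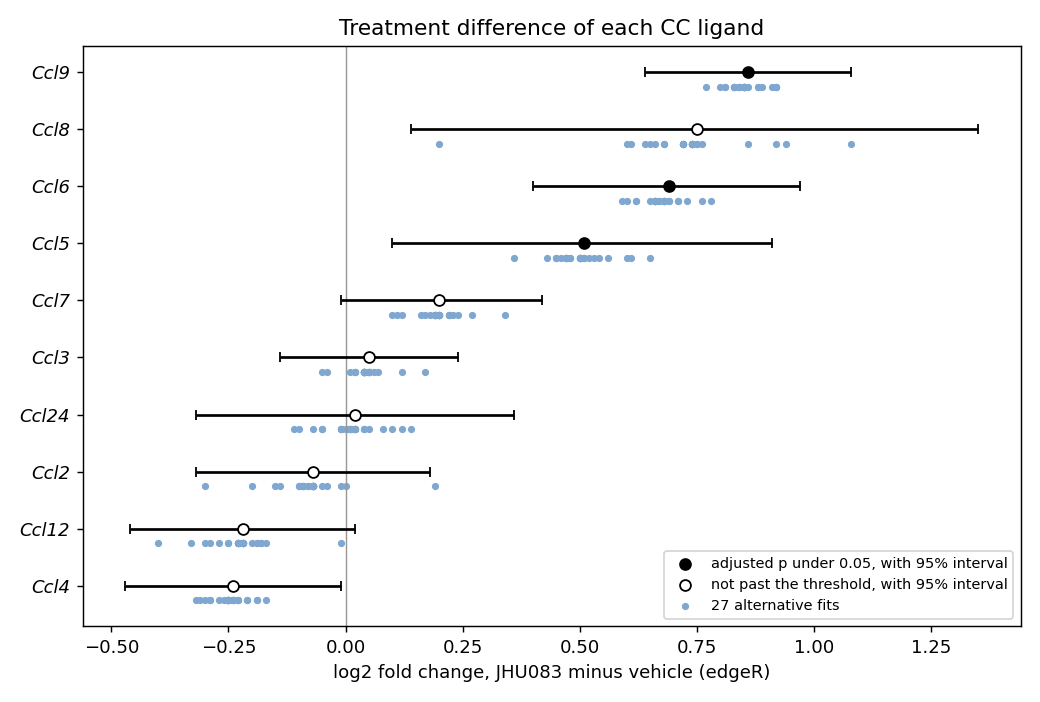
Log2 fold change of each ligand, JHU083 minus vehicle, with its 95% interval (edgeR), filled where the adjusted p is under 0.05, and the values of 27 alternative fits as small points. Ccl9 runs from 0.77 to 0.92 and Ccl6 from 0.59 to 0.78 over the alternatives, while Ccl8 runs from 0.20 to 1.08.

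Across ligands the level per length was read from the deposited FPKM. In vehicle the order by mean FPKM was Ccl8, Ccl6, Ccl12, Ccl24, Ccl9, Ccl2, Ccl3, Ccl7, Ccl4 and Ccl5. Ccl8 had 1147 ± 425 FPKM and Ccl6 879 ± 81.7 FPKM (SD, n = 5), and these neighbours overlapped, as did Ccl24 with Ccl9 and Ccl3 with Ccl7. The other neighbours in the vehicle order did not overlap. Ccl12 stood at rank 3 with 480 ± 52.0 FPKM, and at the low end Ccl4 had 169.5 ± 15.1 and Ccl5 22.7 ± 3.35 FPKM (SD, n = 5).

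In JHU083 the order by mean FPKM was Ccl8, Ccl6, Ccl9, Ccl12, Ccl24, Ccl7, Ccl2, Ccl3, Ccl4 and Ccl5. Ccl9 moved from rank 5, at 292 ± 23.2 FPKM, to rank 3, at 557 ± 90.1 FPKM (SD, n = 5), though its JHU083 range overlapped that of Ccl12, now at 412 ± 66.4 FPKM. Fewer neighbours were separate than in vehicle, these being Ccl6 from Ccl9, Ccl3 from Ccl4 and Ccl4 from Ccl5. The deposited count per FPKM of a gene should be nearly fixed, and it varied between samples by at most 1.08 times for 9 ligands and 1.17 times for Ccl9, so the FPKM of Ccl9 carries that added uncertainty.

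**Figure D3:**
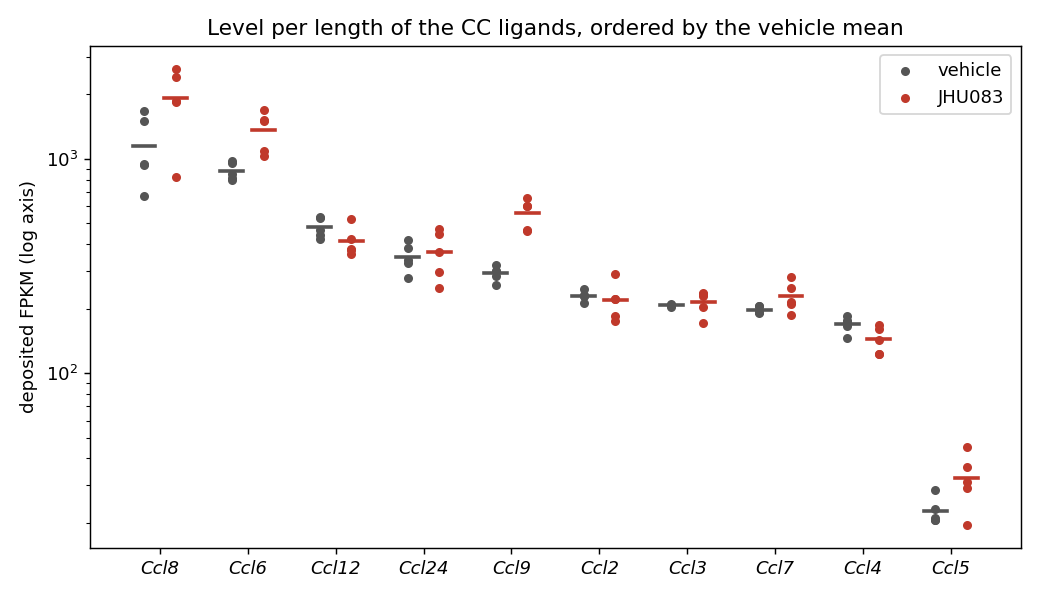
Deposited FPKM of each ligand by sample on a log axis, ordered by the vehicle mean, with 1 point per sample and a bar at the group mean. Ccl8 and Ccl6 lead in both groups, Ccl5 is lowest, and Ccl9 passes the vehicle range in every JHU083 sample.

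The 10 ligands together made up 0.250 ± 0.0118% of all fragments in vehicle (0.242 to 0.270%) and 0.335 ± 0.0593% in JHU083 (0.257 to 0.385%; SD, n = 5). The ranges overlapped, since JHU083 1 lay below vehicle 4. Summed as scaled CPM, the mean was 1.42 times higher in JHU083, and 1.37 times as FPKM. Ccl6 was the largest share of the summed CPM in both groups, at 35.1 ± 3.27% and 39.5 ± 1.60% (SD, n = 5). Ccl9 held 14.0 ± 1.17% and 17.9 ± 1.15%, with no overlap between the groups. Lower shares with no overlap were those of Ccl12 (6.84 ± 0.768% and 4.23 ± 0.949%), Ccl24 (9.01 ± 0.992% and 6.37 ± 0.673%) and Ccl4 (3.37 ± 0.304% and 2.04 ± 0.371%). Ccl2 held 6.18 ± 0.552% and 4.20 ± 0.914% (SD, n = 5), and its ranges and those of the other ligands overlapped. These are descriptions, and a share moves when another ligand does.

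The ligands also differed between groups in their spread. The coefficient of variation was larger in JHU083 for 9 of the 10, Ccl8 being the exception, and for 65.6% of all tested loci. Its median over the ligands was 8.59% in vehicle and 19.3% in JHU083, against 11.5% and 14.8% over all tested loci. Without JHU083 replicate 3 it was larger for 9 of 10 ligands, now with Ccl12 as the exception, and for 45.9% of loci, and the ligands' median in JHU083 was 15.8%. Over all samples the coefficient of Ccl3 was 1.68% in vehicle and 13.3% in JHU083, that of Ccl7 3.87% and 17.3% and that of Ccl2 5.15% and 21.2%. Without JHU083 replicate 3 the JHU083 values were 14.7% for Ccl3, 12.7% for Ccl7, 12.01% for Ccl2 and 5.82% for Ccl12, which had 17.3% with it. No test of the spread was made.

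Shared variation was described as the correlation of log2 CPM after subtraction of each group's mean, over the 10 samples. The strongest of the 45 pairs was Ccl6 with Ccl9, at Pearson r = 0.95 (permutation p = 0.00431) and Spearman rho = 0.94 (p = 0.00377). Without the 2 samples farthest from the median of the Ccl6 deviations, r was 0.96. Neither permutation p passed after adjustment over the 45 pairs (0.125 and 0.170). The next by permutation p was Ccl8 with Ccl24, at Pearson r = 0.80 (permutation p = 0.00557) and Spearman rho = 0.72 (p = 0.0177). Adjusted values were 0.125 and 0.304, and r was 0.55 without the 2 samples farthest from the median of the Ccl8 deviations. Of the 45 pairs 41 had a positive r, with a median of 0.48, and 0 passed after adjustment. All pairs share the same libraries and their scaling.

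**Figure D4:**
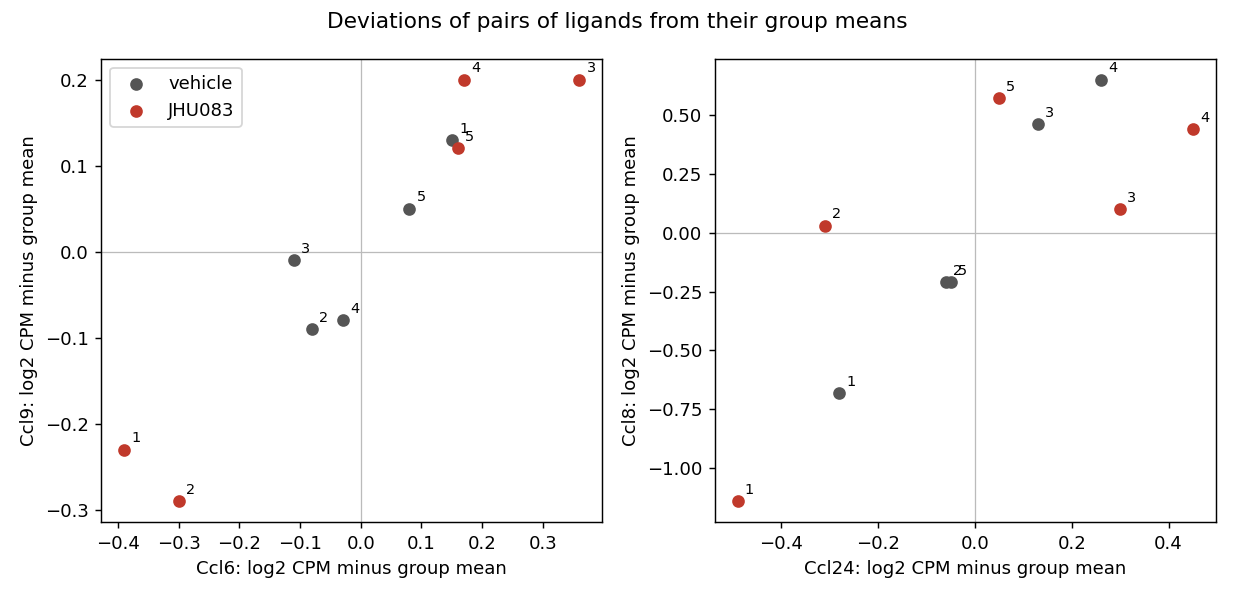
Deviation of log2 CPM from the group mean in each sample, Ccl9 against Ccl6 on the left and Ccl8 against Ccl24 on the right, with points numbered by replicate. Ccl6 and Ccl9 deviate together in both groups, while the relation of Ccl8 with Ccl24 is looser.

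By the same measure, the loci most like each ligand were looked up among 9472 loci with 1 symbol and an average log2 CPM of at least 2. Ccl9 was most like Ddx56 (r = 0.96), Ccl6 (0.95) and Mbd2 (0.95), so that its chromosomal neighbour was among its 3 closest loci. Ccl6 was most like Mlycd (0.98), Retsat (0.97) and Uchl3 (0.96). Ccl8 was most like Tmem26 (0.97), Gatm (0.96) and Rnase2a (0.95), and Ccl24 most like F10 (0.95), Pgf (0.94) and Pgap2 (0.93). The CCR2 ligands had different closest loci, Impdh2 (0.98) for Ccl2, Nsa2 (0.96) for Ccl7 and Ppp1ca (0.99) for Ccl12. Those of Ccl3, Ccl4 and Ccl5 were P2rx1 (0.96), Fars2 (0.96) and Atp1b3 (0.95). These values over 10 samples are descriptions with no test.

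Of 13 other CC ligands, 3 were high enough to be tested, and 2 rose, where 18.4% of all tested loci were higher. Ccl17, a CCR4 ligand that attracts T cells, was at 3.33, 4.72, 5.28, 3.21 and 3.21 CPM in vehicle and at 4.98, 6.17, 13.2, 31.3 and 13.4 CPM in JHU083. Its treated values were spread widely, and the lowest lay among the vehicle values. The log2 fold change was 1.79 ± 0.42 (SE, edgeR adjusted p = 0.00436). Ccl22, the other CCR4 ligand, rose from 4.75 ± 0.904 to 8.24 ± 2.62 CPM (SD, n = 5), with JHU083 2 within the vehicle range and a log2 fold change of 0.79 ± 0.23 (SE, edgeR adjusted p = 0.0152). The call of Ccl22 was lost with the replicate number as a block (0.75) and within the libraries with Rn18s-rs5 at 0 (0.92) and present (0.64). That of Ccl17 was lost within the libraries at 0 (1.28), and neither changed sign in any of 27 alternatives. Ccl25 did not pass, at -0.29 ± 0.21 (SE, adjusted p = 0.309).

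Among 10 receptors for CC ligands, 5 were tested and 1 rose, a share near the 18.4% of all tested loci that were higher. Without JHU083 replicate 2 the count was 2, where 15.7% of all loci were higher. Ccr1, the receptor for Ccl6 and Ccl9, was at 280, 270.1, 270.4, 283 and 270.1 CPM in vehicle and at 307, 344, 332, 353 and 316 CPM in JHU083, with no overlap. The log2 fold change of Ccr1 was 0.27 ± 0.06 (SE, edgeR adjusted p = 0.00429). Its call was lost within either Rn18s-rs5 status, and over 27 alternatives its log2 fold change ran from 0.19 to 0.29. Ccr2, the receptor of the monocyte chemoattractants, averaged 332 CPM in vehicle samples and 366 in treated ones, with a log2 fold change of 0.14 ± 0.16 (SE, edgeR adjusted p = 0.508). Of 6 atypical or related receptors, 2 were tested and both rose, against the same 18.4%. Ccrl2, which binds chemerin, had a log2 fold change of 0.51 ± 0.09, and Ackr3, a scavenging receptor for CXC ligands, 0.89 ± 0.15 (SE, edgeR adjusted p = 0.000571 and 0.000489).

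**Figure D5:**
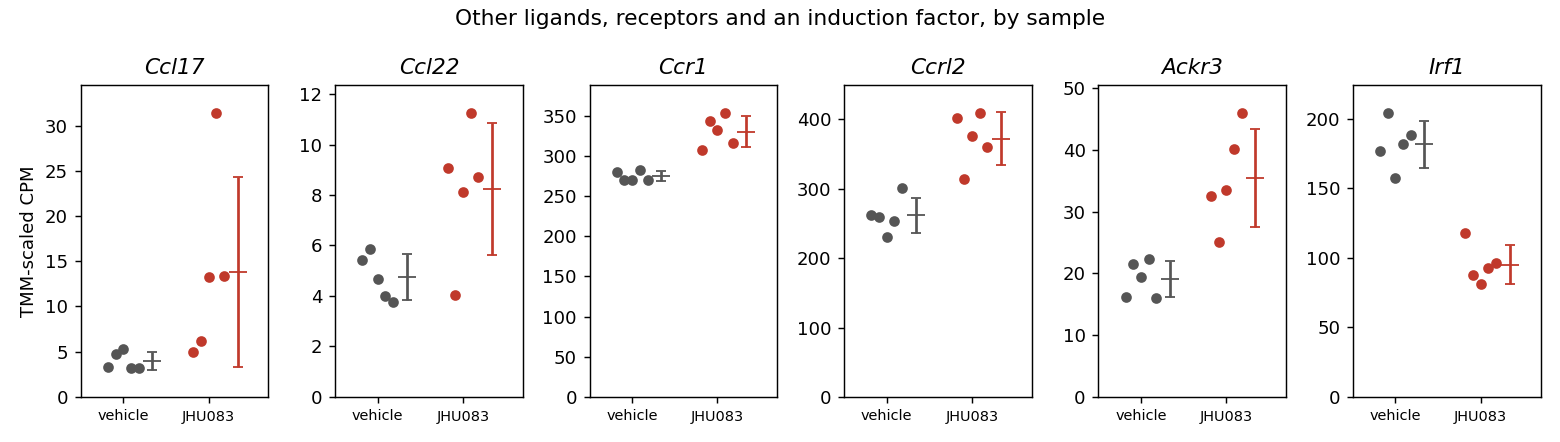
Transcript level in CPM scaled by TMM, by sample, of Ccl17, Ccl22, Ccr1, Ccrl2, Ackr3 and Irf1, with the mean and SD beside the points (y axes start at 0 and differ). The groups are separate for Ccr1, Ccrl2, Ackr3 and Irf1, and overlap for Ccl17 and Ccl22.

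Of 22 transcription factors and feedback inhibitors of chemokine induction that were tested, 4 were higher and 5 lower by the edgeR test, with a median log2 fold change of 0.01. These shares are near those of all tested loci (18.4% higher and 18.3% lower), and the other members of the list did not pass. Without JHU083 replicate 3, 6 were higher and 5 lower (22.9% and 23.1% of all loci), and with scaling to library size only 3 and 5 (12.5% and 25.1%). Among the NF-kappaB members Rel rose (0.46 ± 0.11, SE), and Nfkb2 (-0.26 ± 0.08) and the inhibitor Nfkbie (-0.56 ± 0.10) fell, while Nfkb1 (-0.01 ± 0.11) and Rela (-0.07 ± 0.09) did not pass. The AP-1 members Fos (0.59 ± 0.08), Fosb (0.63 ± 0.11) and Jun (0.40 ± 0.12) rose (SE), while Junb (0.10 ± 0.10) did not pass. Jun lost its call when scaled to library size only. Within the libraries with Rn18s-rs5 at 0, a fit of 5 samples, the calls of Rel (0.44), Nfkbie (-0.51), Jun (0.21) and Nfkb2 (-0.13) were lost, the first pair with log2 fold changes close to those of all samples. That of Nfkb2 held in 21 of 27 alternatives and was also lost with the replicate block and without vehicle 2, vehicle 4, JHU083 2 or JHU083 5. The interferon-responsive factors Irf1 (-0.93 ± 0.10, SE) and Irf7 (-0.94 ± 0.13) fell. Irf1 was at 157 to 204 CPM in vehicle and 81.1 to 118 CPM in JHU083, with no overlap. The transcript level of a factor is not its activity, and the ligands' dependence on these factors was not tested.

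Markers of other cells that could make these ligands were summed per sample. A marker counts as detected with at least 1 fragment in any sample, and 18.4% of all tested loci were higher and 18.3% lower. Macrophage markers reached 12745 to 16573 CPM in vehicle and 15315 to 19518 CPM in JHU083, with 9 of 9 detected and 4 higher, among them Adgre1, Csf1r and Mertk. Monocyte markers summed to 328 to 397 and 296 to 531 CPM, with 7 of 7 detected, and most of the sum was Ccr2. Of the 6 tested, Chil3 was higher (log2 fold change 2.08) and Ly6c1 (-2.54) and Vcan (-1.06) were lower. Ly6c1 was near the floor, at a mean of 1.93 CPM in vehicle and 0.328 CPM in JHU083, with 2 fragments in its lowest sample. Plac8 (-0.73) did not pass (edgeR adjusted p = 0.0664), a result that held in 18 of 27 alternatives. It was called lower within the libraries with Rn18s-rs5 at 0 (-1.44, adjusted p = 0.00856) and was at -0.30 within the others (adjusted p = 0.581). The calls of Chil3 (1.40) and Vcan (-0.71) were lost within the libraries with Rn18s-rs5 at 0, and that of Vcan also in the fits of FPKM. Neutrophil markers summed to 97.4 to 109 and 98.3 to 151 CPM, with 8 of 8 detected (Ly6g with at most 2 fragments), and most of the sum was Csf3r. Of the 6 tested, Csf3r was higher (0.53) and S100a8 (-1.40) and S100a9 (-2.18) were lower. Epithelial tumour markers summed to 295 to 642 CPM in vehicle and 102.5 to 218 CPM in JHU083, with 7 of 7 detected and 7 lower. Fibroblast markers summed to 103 to 226 and 25.9 to 115 CPM, with 7 of 7 detected and 5 lower. That count was 2 without vehicle 2 or without JHU083 4, 3 without vehicle 4 or without JHU083 5, and 0 within the libraries with Rn18s-rs5 at 0. Fibroblasts and tumour cells can make CCR2 ligands, although the CD45+CD11b+F4/80+ gate should remove them, and their part in the values of Ccl2, Ccl7 and Ccl12 was not tested.

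T and NK cell markers, of which 12 of 12 were detected, summed to 31.0 to 35.2 CPM in vehicle and 38.2 to 57.8 CPM in JHU083. Of the 3 tested, Cd4 was higher (log2 fold change 1.12), and Gzmb (-0.91) and Klrb1c (-0.38, at a locus with 3 symbols) did not pass (edgeR adjusted p = 0.0558 and 0.0563) but were called lower with DESeq2, limma-voom and library size only. Without Cd4, which macrophages can also express, they summed to 15.9 to 21.0 and 9.73 to 17.2 CPM, and no Cd3 gene had more than 15 fragments. These ranges without Cd4 overlapped, while those of the whole list did not. T and NK cells are a source of Ccl5, although the CD11b+F4/80+CD8- gate should remove most of them, and their part in its values was not tested. Dendritic cells are a source of Ccl17 and Ccl22, and their markers summed to 26.7 to 53.7 and 21.4 to 39.1 CPM, with 7 of 7 detected. Of the 6 tested, Fscn1, the most abundant in vehicle, fell from 28.5 to 10.7 CPM and Cd209a rose from 1.69 to 7.24 CPM (a call lost within the libraries with Rn18s-rs5 at 0), and the median log2 fold change was 0.29. The part of dendritic cells in the values of Ccl17 and Ccl22 was not tested. Eosinophil markers summed to 3.68 to 10.6 and 6.63 to 17.4 CPM, with 5 of 6 detected, Prg3 at 0 and 1 of 3 tested higher, Siglecf, a call lost within either Rn18s-rs5 status. Basophil and mast cell markers summed to 4.95 to 7.02 and 5.76 to 12.1 CPM, with 5 of 6 detected, Prss34 at 0 and 1 of 2 tested higher, Cpa3 (edgeR adjusted p = 0.0455), a call that held in 12 of 27 alternatives. B cell markers summed to 2.58 to 3.77 and 3.47 to 5.14 CPM, with 4 of 4 detected and 1 of 1 tested higher, Cd79b, at the threshold (edgeR adjusted p = 0.0498), a call that held in 5 of 27 alternatives.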

How the data were processed

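RNA from sorted macrophages was sequenced as polyadenylated, unstranded paired-end libraries, per the labels' protocols. The submitters' processing notes name bcl2fastq 2.17.1.14, FastQC 0.11.2, TopHat2 2.1.1 and GRCm38. The counting program and annotation are not given in the sources used here. The authors deposited, per the file headers, a raw count column whose values are not whole (unit: expected counts). From 99.78% to 99.96% of positive values were whole multiples of a step per sample (0.888 to 1.17, tolerance 0.05). The values were therefore treated as scaled fragment counts, and the step was divided out and the result rounded. The other deposited column was read as FPKM from its values.

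Loci were filtered with filterByExpr, scaled with TMM and compared with edgeR 4.0.16 (R 4.3.3, quasi-likelihood test), using all 10 samples, no covariate and Benjamini-Hochberg adjustment over 12501 loci at 0.05. Adjusted p-values are from this test. CPM is TMM-scaled, with a prior count of 2 on the log2 scale. Alternatives used DESeq2 1.42.0, limma 3.58.1, other scalings, filters and units, and left out each sample. Exact permutations ran over all splits of 10 samples, and correlations used 100000 permutations within groups (scipy 1.17.1). The edgeR script was tested on simulated data. The text names all 10 ligands, genes of fixed lists, and the loci most correlated with each ligand. Members and lists were chosen with earlier results of these data known. The TATA motif and the T and NK list without Cd4 were added after seeing the data. Some genes of the lists are not reported here.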

Additional observations from a re-analysis of the deposited data

How the results depend on the processing

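Over 27 alternatives Ccl9 stayed called higher in 27, Ccl6 in 26 and Ccl5 in 10. Counting every ligand in every alternative, 223 values kept direction and side of the threshold, 18 lost the call, 15 gained one and 14 changed sign. The count of ligands called higher (3) was 1 within the libraries with Rn18s-rs5 at 0, which hold 3 vehicle and 2 JHU083 samples. The count called lower (0) was 2 with sample quality weights, 2 with scaling to library size only and 1 within the libraries with Rn18s-rs5 present. Over all loci, 2942 were higher and 2918 lower with quality weights, 532 and 586 within the libraries at 0, and 1274 and 1545 within the others. Scaling to library size only moved the median log2 fold change of all loci from 0.01 to -0.07 and gave 1564 higher and 3141 lower, against 2296 and 2293. Leaving out each sample in turn gave 2 to 4 ligands higher, 0 to 2 lower, 1823 to 2895 loci higher and 1899 to 2929 lower. The cause of these shifts was not tested, but fewer samples entered the fits within a status.

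Signs turned only for ligands that did not pass. Ccl24 was at -0.01 with limma-voom, -0.01 with quality weights, -0.01 with upper-quartile scaling, -0.07 with library size only and -0.11 within the libraries at 0, and ran from -0.10 to 0.12 as each sample was left out. Ccl3 was at -0.04 with library size only and -0.05 within the libraries with Rn18s-rs5 present. Ccl2 was at 0.19 within the libraries at 0, and ran from -0.20 to 0.00 as each sample was left out.

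With the replicate number as a block, 4 ligands were higher and 0 lower, with 1612 loci higher and 1757 lower, and Ccl24 was at -0.01. Ccl8 gained its call (0.72, edgeR adjusted p = 0.00998), as it did with no filter on low counts (0.75, adjusted p = 0.000331). Same-numbered samples did not deviate together, with correlations of -0.20, 0.09, -0.57, -0.12 and -0.16. The labels do not say whether the numbers pair the samples. These correlations cannot settle it, since each rests on a single sample per group. Depth limits Ccl5 most, with 92 fragments in its lowest sample.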
